A study of Mus musculus with 14 samples.

Results

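The genes described here are 9 transcription factors of the B lineage, namely Ebf1, Pax5, Pou2af1, Spib, Tcf3, Foxo1, Ikzf1, Ikzf3 and Bach2, in spleen cells of immunized mice. Their array probes were found by matching the accession of each probe to a gene symbol through RefSeq, without use of any measured value. The match gave 17 of the 56605 non-control probes on the array, between 1 and 3 probes per gene. All 17 probes passed the filter on dim probes, so all 9 genes are among the 24908 genes or unnamed transcripts that were tested.

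Splenocyte RNA of 14 mice, 7 WT and 7 Stinggt/gt, was hybridised to 14 one-colour Agilent arrays of 62976 spots, with 1 array per mouse. Every mouse was given chick type II collagen with complete Freund's adjuvant (CFA) into the skin at 10 to 14 weeks of age, and the spleen was taken 2 weeks after that, so no unimmunized mouse is in the series. WT mice were C57BL/6 and came from a national laboratory animal centre. Stinggt/gt mice carry golden ticket, an allele made with the mutagen ENU on the C57BL/6 background, which leaves no detectable STING protein according to the methods, and they came from another university. Genotype and source of the line therefore cannot be told apart. Red blood cells were lysed before the RNA was taken. The comparison asks which genes differ in the spleen when the DNA-sensing adaptor STING is missing during the response to collagen.

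Values are the log2 of the scanner's background-corrected signal with each array's 75th percentile set to 0, so that 1 unit is a doubling of signal relative to that percentile. Before this step the 75th percentile of the signal ran from 416 to 549.97 in WT mice, with a median of 471, and from 403 to 490.01 in Stinggt/gt mice, with a median of 475. Between 31115 and 34398 probes were well above background in WT mice and between 30781 and 33620 in Stinggt/gt mice. Each gene was read from its brightest tested probe, and the other probes are described after the genes. Signals of different genes are not compared with each other, since each probe has a brightness of its own. How precise each value can be is limited by the number of mice.

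The scanner files hold 2 scan days, and both hold both genotypes. Replicates 1 to 3 of each genotype were scanned on the first, called scan day 1, and replicates 4 to 7 on the other, called scan day 2. The arrays sat on 6 slides. Only 2 slides held both genotypes, with 3 WT and 2 Stinggt/gt arrays of scan day 1. On scan day 2 the WT arrays were on a pair of slides and those of Stinggt/gt mice on a different slide, which means that genotype and slide cannot be told apart on that day. The targeted gene, Sting1, had a log2 signal of 2.85 to 3.33 in WT mice (median 3.12) and 2.92 to 3.29 in Stinggt/gt mice (median 3.16). The Stinggt/gt range lay inside the WT range, and because golden ticket is a point mutation, the level of this RNA does not check the labels.

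Markers of the main cells of the spleen were read to describe the samples. They do not check the label spleen, since a gene was tested only when well above background on at least 7 of 14 arrays. All 8 B cell markers and all 10 T cell markers were well above background on all 14 arrays, as were all tested markers of plasma cells (7), neutrophils (8 of 9 listed, Ly6g having no matched probe), monocytes and macrophages (8), dendritic cells (8), NK cells (6) and erythroid cells (8). Averaged over the B cell markers, the log2 signal was 2.99 ± 0.43 (SD, n = 7) in WT mice and 2.87 ± 0.21 (SD, n = 7) in Stinggt/gt mice.

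Tcf3, whose E2A proteins bind E boxes, Ebf1 and Foxo1 open the B cell programme in bone marrow progenitors, and Pax5 then commits the cells to it and keeps them B cells. In mature B cells of the spleen, Pou2af1 (OBF-1) binds with octamer factors, Spib is an ETS factor close to PU.1, and the zinc finger proteins Ikaros (Ikzf1) and Aiolos (Ikzf3) tune the response of the B cell receptor. Bach2 holds activated B cells back from becoming plasma cells.

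The members that passed an unadjusted threshold on scan day 2 are Ebf1, Pax5 and Spib, and their promoters are shown for that reason. RefSeq sequences on build GRCm38.p6, from 250 bases before to 50 bases after each transcription start, were at hand for 8 of the 9 members, as 10 promoters. None was listed for Ikzf3. Those shown are the second promoter of Ebf1 at chr11:44619978-44620277 on the plus strand, that of Pax5 at chr4:44710645-44710944 on the minus strand and that of Spib at chr7:44532022-44532321 on the minus strand, each written 5′ to 3′ along the gene.
Ebf1 promoter 2: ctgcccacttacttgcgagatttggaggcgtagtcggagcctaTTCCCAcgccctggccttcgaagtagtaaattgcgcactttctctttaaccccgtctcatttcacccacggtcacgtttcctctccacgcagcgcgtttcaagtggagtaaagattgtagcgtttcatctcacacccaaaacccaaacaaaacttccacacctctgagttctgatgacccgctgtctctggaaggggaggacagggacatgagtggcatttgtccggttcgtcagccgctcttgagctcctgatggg
Pax5: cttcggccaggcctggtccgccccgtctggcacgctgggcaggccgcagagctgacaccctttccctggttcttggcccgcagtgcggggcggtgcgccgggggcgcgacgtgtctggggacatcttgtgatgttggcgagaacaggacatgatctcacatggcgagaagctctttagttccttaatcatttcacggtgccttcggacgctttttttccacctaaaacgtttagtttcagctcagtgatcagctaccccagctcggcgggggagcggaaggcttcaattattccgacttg
Spib: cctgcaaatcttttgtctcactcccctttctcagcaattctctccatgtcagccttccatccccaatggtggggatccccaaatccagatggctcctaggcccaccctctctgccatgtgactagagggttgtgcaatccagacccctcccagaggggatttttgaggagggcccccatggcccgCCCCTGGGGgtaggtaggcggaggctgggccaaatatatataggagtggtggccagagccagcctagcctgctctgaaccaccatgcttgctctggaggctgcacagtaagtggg
Capitals mark letters that match a motif of these factors. Both strands were searched for ATGCAAAT (octamer), CCCNNGGG (EBF core), CAGCTG and CAGGTG (E boxes), GTAAACA (forkhead), AGGAAGT (ETS), TGGGAA (Ikaros core) and TGACTCA (AP-1 and Bach core). In the Ebf1 promoter, TGGGAA lies on the opposite strand at position -207 from the start and is printed as its reverse complement. The first promoter of Ebf1, not shown, held no match. The Spib promoter holds CCCNNGGG at -65 and -64, a pair of overlapping matches that share most of their letters. No motif searched for was found in the Pax5 window.

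Among the 10 promoters of the members, 3 held CCCNNGGG (Spib, Foxo1 and the first of Ikzf1) and 1 held TGGGAA. Among all 32851 promoters of the same length, 13.7% held CCCNNGGG and 25.6% held TGGGAA. The other motifs, found in no promoter of a member, were in 1.74% (ATGCAAAT), 16.3% (CAGCTG), 20.2% (CAGGTG), 3.65% (GTAAACA), 9.35% (AGGAAGT) and 5.2% (TGACTCA) of all promoters. GC content was 53.0% in the Ebf1 promoter shown, 59.0% in that of Pax5 and 58.0% in that of Spib, against a median of 52.7% over all promoters. A match describes the letters only, and binding was not measured.

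Ebf1, the pioneer factor that opens B lineage genes, was the member with the clearest difference between the genotypes. Its log2 signal ran from 0.49 to 1.30 in the 7 WT mice, with a median of 1.13, and from 0.40 to 0.83 in the 7 Stinggt/gt mice, with a median of 0.66. Of the WT mice, 5 lay above every Stinggt/gt mouse, and 3 Stinggt/gt mice lay below every WT mouse. The log2 fold change, Stinggt/gt against WT, was -0.34 (standard error 0.14, n = 7 and 7), with a two-sided exact permutation p of 0.0338, where the smallest this design allows is 0.000583. It passed an unadjusted p under 0.05 in limma, but not the adjustment over all genes (adjusted p = 0.999 by limma, 0.0814 to 1 over the alternatives). With slide as a fixed block, which rests on the 5 arrays of the mixed slides, the log2 fold change was -0.12, and with slide as a random block it was -0.25, in both cases past no threshold. In whole splenocytes, fewer B cells and less of an RNA in each B cell cannot be told apart.

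Pax5, which commits cells to the B lineage, was read from a single probe, which was well above background on each array. Its signal ran from -2.46 to -1.71 in WT mice (median -2.27) and from -2.97 to -1.79 in Stinggt/gt mice (median -2.67). The lowest 4 mice of the series were Stinggt/gt, while the other Stinggt/gt mice lay among the highest WT mice. The log2 fold change was -0.21 (standard error 0.20), with an exact permutation p of 0.329 (n = 7 and 7). Its sign turned when slides were blocked, to 0.17 with slide fixed and 0.019 with slide random.

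Tcf3 and Foxo1, which act with Ebf1 in progenitors, overlapped broadly between the genotypes. Tcf3 ran from 2.56 to 2.94 in WT mice (median 2.62) and from 2.46 to 2.73 in Stinggt/gt mice (median 2.67), so the medians and the means, which gave a log2 fold change of -0.079 (standard error 0.093), pointed in opposite directions. Foxo1 ran from 1.75 to 2.21 in WT mice (median 2.0) and from 1.74 to 2.13 in Stinggt/gt mice (median 1.89), and the log2 fold change was -0.084 (standard error 0.10). Neither passed a test.

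Spib and Pou2af1 act in mature B cells. Spib ran from 3.55 to 3.94 in WT mice (median 3.78) and from 3.23 to 3.92 in Stinggt/gt mice (median 3.54), with 4 Stinggt/gt mice below every WT mouse and 1 WT mouse above every Stinggt/gt mouse. Its log2 fold change was -0.20 (standard error 0.12), with an exact permutation p of 0.0734 (n = 7 and 7). Pou2af1 ran from 3.64 to 4.20 in WT mice (median 3.92) and from 3.31 to 4.20 in Stinggt/gt mice (median 4.02). For Pou2af1, 1 Stinggt/gt mouse lay below every WT mouse, and the log2 fold change of -0.069 had a standard error of 0.15.

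Among the Ikaros family members, Ikzf3 ran from 1.17 to 1.87 in WT mice (median 1.55) and from 1.02 to 1.60 in Stinggt/gt mice (median 1.44), for which the log2 fold change was -0.15 (standard error 0.15). The highest 3 mice were WT and the lowest 2 Stinggt/gt, with the rest mixed. Ikzf1 ran from 2.29 to 2.65 in WT mice (median 2.58) and from 2.24 to 2.72 in Stinggt/gt mice (median 2.54), so its Stinggt/gt range enclosed the WT range, and the log2 fold change was -0.015 (standard error 0.10). Bach2 ran from -0.00077 to 0.86 in WT mice (median 0.26) and from -0.10 to 0.69 in Stinggt/gt mice (median 0.23), and the log2 fold change was -0.045 (standard error 0.15). Over these 5 factors of mature B cells, exact permutation p values for the difference (n = 7 and 7) ran from 0.0734 (Spib) to 0.872 (Ikzf1). All spleen cells were measured together, and how much of the signal of any factor came from cells other than B cells was not measured.

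**Figure D1:**
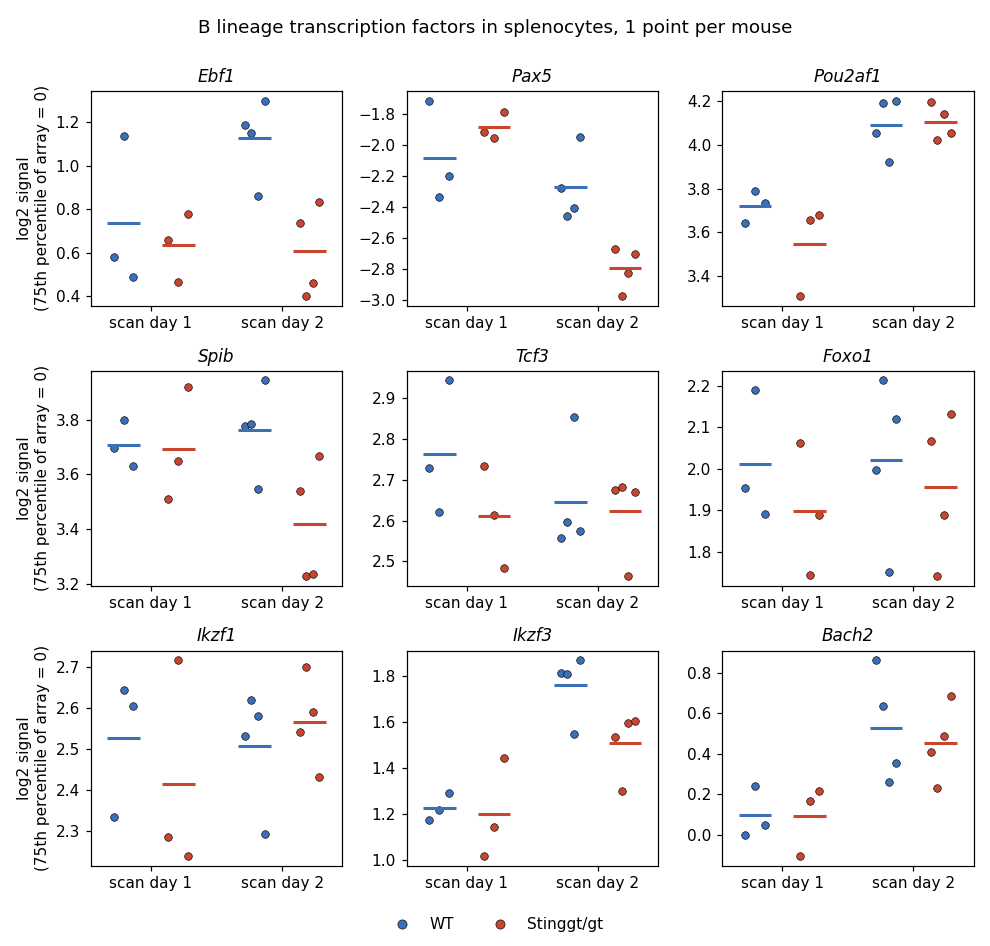
Log2 signal of each factor (vertical axis, 75th percentile of the array at 0) in each mouse, by genotype and scan day, with group means as bars (3 or 4 mice per group). Each factor is shown by the probe used for the gene. By that probe, the Stinggt/gt mice of scan day 2 lay below the WT mice for Ebf1 (0.40 to 0.83 against 0.86 to 1.30) and Pax5. For the other factors the groups overlapped. How many of all genes separated in this way was not counted.

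Counted together, 1 of the 9 factors (Ebf1) passed an unadjusted p under 0.05 in limma, where 3.54% of all 24908 genes did and 1.63% did so with a lower value in Stinggt/gt mice. None of the 9 passed after adjustment by limma. All 9 log2 fold changes were below 0, with a median of -0.084, beside a median of 0.023 over all genes, of which 44.2% were below 0. All 9 were also below 0 with no scaling, with median centring and with quantile normalization. They were not stable against other choices, since 3 were above 0 without Stinggt/gt replicate 1, 2 without WT replicate 5, 2 with array weights and an intensity trend, and 1 with slide as a fixed block. With scan day as a term, Ebf1 alone passed, where 7.24% of all genes did. Leaving out WT replicate 2, 4, 5 or 7 or Stinggt/gt replicate 2, 5 or 6 brought the count from 1 to 0, and leaving out Stinggt/gt replicate 3 brought it to 2, with Spib.

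Read apart, the scan days gave different pictures for some of the factors. With 3 mice per genotype on scan day 1, none of the 9 passed an unadjusted p under 0.05 (3.77% of all genes), 8 were lower and 1 (Pax5) higher in Stinggt/gt mice, and the median was -0.10 beside 0.0027 over all genes. Exact permutation p values cannot go below 0.1 with 3 mice against 3. With 4 mice per genotype on scan day 2, 3 of the 9 passed (Ebf1, Pax5 and Spib, all lower), where 23.7% of all genes passed and 11.3% passed with a lower value. With so few factors, a count of 3 differs from either share by few genes, and nothing particular to the factors is read from it. On that day 7 were lower and 2 higher (Pou2af1 and Ikzf1), with a median of -0.075 beside 0.036 over all genes, and the 2 higher values, 0.011 and 0.059, were below 0 under quantile normalization and no scaling. None of the 9 passed after adjustment by limma on scan day 2, where 316 genes did.

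For Ebf1 on scan day 2, the WT values were 1.19, 1.15, 0.86 and 1.30 and the Stinggt/gt values 0.74, 0.40, 0.46 and 0.83. By this probe the groups did not overlap, although the highest Stinggt/gt mouse lay just under the lowest WT mouse. The share of all genes that separated the genotypes on that day was not counted, so nothing particular to Ebf1 is read from this. The log2 fold change was -0.52 (standard error 0.14), with an exact permutation p of 0.0286, the smallest that 4 mice against 4 can give, and an adjusted p of 0.0814 by limma (0.0439 to 0.209 over the alternatives, with the lowest reached without Stinggt/gt replicate 7). The values of scan day 1 were 0.58, 1.13 and 0.49 in WT mice and 0.66, 0.47 and 0.78 in Stinggt/gt mice. There the groups overlapped, with a log2 fold change of -0.10 (standard error 0.20).

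For Pax5 on scan day 2, the WT values were -2.27, -2.46, -2.40 and -1.95 and the Stinggt/gt values -2.67, -2.97, -2.83 and -2.70. All 4 Stinggt/gt mice lay below all 4 WT mice. As for Ebf1, the share of all genes with such a separation was not counted. In limma 23.7% of all genes passed an unadjusted p under 0.05 on that day. The log2 fold change was -0.52 (standard error 0.14), with an exact permutation p of 0.0286 and an adjusted p of 0.0754 by limma (0.0582 to 0.192 over the alternatives). The values of scan day 1 were -1.71, -2.34 and -2.20 in WT mice and -1.92, -1.96 and -1.79 in Stinggt/gt mice. Here the Stinggt/gt mice lay inside the WT range, and the log2 fold change was 0.20 (standard error 0.19).

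For Spib on scan day 2, the WT values were 3.78, 3.78, 3.55 and 3.94 and the Stinggt/gt values 3.54, 3.23, 3.24 and 3.67. The groups overlapped only in that WT replicate 6 lay below Stinggt/gt replicate 7. The log2 fold change was -0.35 (standard error 0.14), with an exact permutation p of 0.0571 and an adjusted p of 0.174 by limma (0.0827 to 0.366 over the alternatives), and the unadjusted call was kept in 6 of the 12 alternatives. It was lost with no scaling and without WT replicate 4, 5 or 7 or Stinggt/gt replicate 5 or 6. On scan day 1 the values of Spib were 3.69, 3.80 and 3.63 in WT mice and 3.51, 3.65 and 3.92 in Stinggt/gt mice, with no separation and a difference of -0.017 (standard error 0.15).

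For Ikzf3 on scan day 2, the WT values were 1.81, 1.81, 1.55 and 1.87 and the Stinggt/gt values 1.54, 1.30, 1.60 and 1.60. Only WT replicate 6 lay within the Stinggt/gt range. The log2 fold change was -0.25 (standard error 0.12), with an exact permutation p of 0.0857, and it passed an unadjusted p under 0.05 in 3 of the 12 alternatives, namely quantile normalization, the authors' series table and without WT replicate 6. For scan day 1 it was -0.026. The other factors of scan day 2 lay near 0, at -0.022 for Tcf3, -0.063 for Foxo1 and -0.075 for Bach2.

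Whether the genotype difference itself changed between the scan days was tested by an interaction term. For Pax5 the term was -0.72 (standard error 0.23), and it passed an unadjusted p under 0.05 as 18.4% of all genes did. After adjustment over all genes it did not pass (adjusted p = 0.125 by limma, n = 14 arrays, 0.0683 to 0.358 over the alternatives), while 0.490% of all genes did. For the other 8 factors no unadjusted p was under 0.05, so for Ebf1 (adjusted p = 0.382, term -0.42, 0.205 to 0.643 over the alternatives) a difference between the days was not shown. Without WT replicate 2, Ebf1 also passed the unadjusted threshold, which brought the count from 1 to 2.

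The scan days themselves were also compared. In a limma fit that held genotype too, 4 of the 9 had an adjusted p under 0.05 for the scan day, where 38.8% of all genes did. Pou2af1 was higher on scan day 2 by 0.46 (adjusted p = 0.000726, n = 14 arrays, 9.11e-05 to 1 over the alternatives), Ikzf3 by 0.42 (adjusted p = 0.00279, 9.43e-05 to 1) and Bach2 by 0.40 (adjusted p = 0.0109, 0.000486 to 1), all by limma. For Pax5 the day difference was -0.55 (adjusted p = 0.00866 by limma, 0.00232 to 1). In each of these 4 the high end of the range came from the authors' series table, in which no gene of the 24908 differed between the days after adjustment by limma and 348 did at an unadjusted p under 0.05. There the day difference was 0.21 for Pou2af1, which still passed an unadjusted p under 0.05 in limma, and -0.048 for Pax5. The table comes from the same 14 arrays, whose scanner signal did differ between the days, so the differences of these 4 factors were smaller in it. How it was normalized is not given in the sources used here. With quantile normalization, median centring and no scaling all 4 stayed under the adjusted threshold. Median centring moved all genes by a median of 0.17 between the days, beside 0.0049 with the 75th percentile, and added Ebf1 to the called factors, at 0.34.

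**Figure D2:**
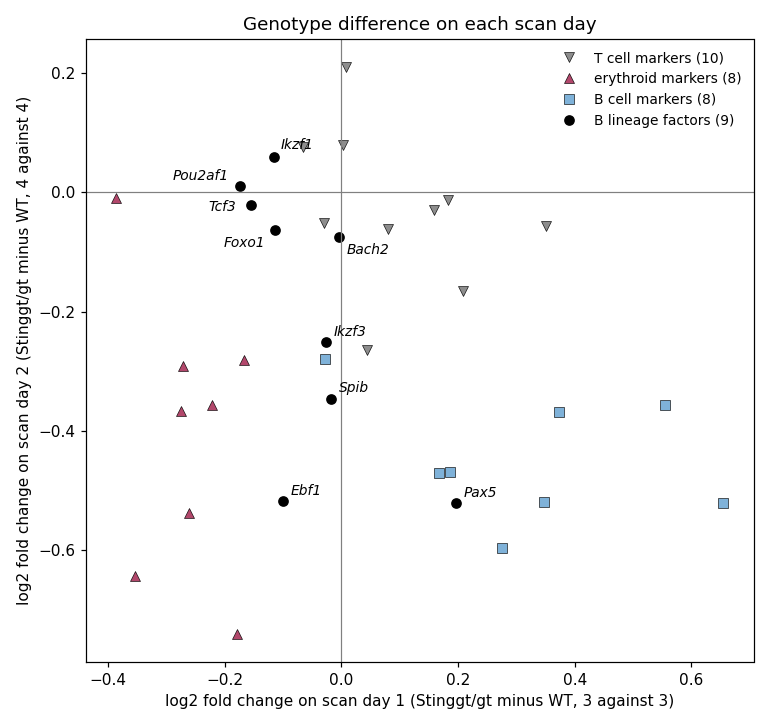
Log2 fold change, Stinggt/gt minus WT, on scan day 1 (horizontal axis, 3 mice against 3) and on scan day 2 (vertical axis, 4 against 4), 1 point per gene. Pax5, at 0.20 and -0.52, lay near the B cell markers, of which 7 were above 0 on scan day 1 and all 8 below 0 on scan day 2. Ebf1 lay at -0.10 and -0.52, with the erythroid markers at the lower left.

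Seen probe by probe, all 17 log2 fold changes were below 0, with a median of -0.085 beside 0.020 over the 31766 tested probes, of which 44.8% were below 0. Of the 17, 2 passed an unadjusted p under 0.05 (3.46% of all tested probes), and both were probes of Ebf1. Probes of the same gene share their target and are not replicates. The second Ebf1 probe ran from -0.079 to 0.55 in WT mice (median 0.18) and from -0.39 to 0.13 in Stinggt/gt mice (median -0.071). Its log2 fold change was -0.28 (standard error 0.12), with an exact permutation p of 0.0286 (n = 7 and 7), so both probes of Ebf1 gave a difference of similar size. On scan day 2, however, the genotypes overlapped by the second Ebf1 probe (exact permutation p of 0.0857). There WT replicate 6 (-0.079) lay below Stinggt/gt replicates 4 (0.0046) and 7 (-0.071).

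Of the 17 probes on scan day 2, 15 were lower and 2 higher, and 6 passed an unadjusted p under 0.05, where 23.0% of all tested probes did. The 6 were both probes of Ebf1, those of Pax5 and Spib, the second of 3 probes of Ikzf1 and the second of 3 probes of Ikzf3, where the probe used for the gene counts as the first and the others follow in the order of the plot of every probe. The Ikzf1 probes went apart. The second ran from 1.20 to 2.02 in WT mice (median 1.56) and from 0.63 to 1.72 in Stinggt/gt mice (median 1.36), and the log2 fold change was 0.18 on scan day 1 and -0.72 (standard error 0.18) on scan day 2. The first Ikzf1 probe, by contrast, had -0.11 and 0.059 on the same days, and the last had -0.046 and -0.18. By the second Ikzf1 probe and the second and last probes of Ikzf3, all Stinggt/gt mice of scan day 2 lay below all WT mice. The exact permutation p was 0.0286 for each of them. How many of all probes separated in this way was not counted. Of the 17 interaction terms, 2 passed an unadjusted p under 0.05 (18.1% of all tested probes), that of Pax5 and that of the second Ikzf1 probe (-0.91), and neither passed after adjustment by limma. Which transcripts the Ikzf1 probes detect was not analysed here.

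The remaining probes passed no threshold over all 14 arrays. The second probe of Ikzf1 had a fold change of -0.33 (standard error 0.17) on the log2 scale and the last -0.12 (standard error 0.13). The other probes of Ikzf3 had log2 fold changes of -0.18 (standard error 0.11) and -0.033 (standard error 0.091), and the second probe of Tcf3 had -0.078 (standard error 0.12). The second probe of Foxo1 had -0.059 (standard error 0.15). The second probe of Bach2 was well above background on 10 of the 14 arrays only (5 of each genotype), and the log2 fold change was -0.085 (standard error 0.18). Every other probe of these factors was well above background on all 14 arrays. Between the scan days, 10 of the 17 probes and 6 of the 9 genes kept their sign.

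In the authors' deposited table of log2 values, all 17 probes were again lower in Stinggt/gt mice, with a median of -0.10, and 2 passed an unadjusted p under 0.05, where 7.73% of all tested probes did. They were the same 2 Ebf1 probes, with log2 fold changes of -0.33 (standard error 0.13) and -0.27 (standard error 0.11). In its scan day 1 arrays 11 were lower and 6 higher, with none past the threshold by limma and a median of -0.058. In its scan day 2 arrays all 17 were lower and 6 passed, where 23.0% of all tested probes did, with -0.51 for Ebf1, -0.43 for Pax5, -0.39 for Spib and -0.66 for the second Ikzf1 probe. The table and the scanner signal come from the same arrays, so they are not independent of each other.

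**Figure D3:**
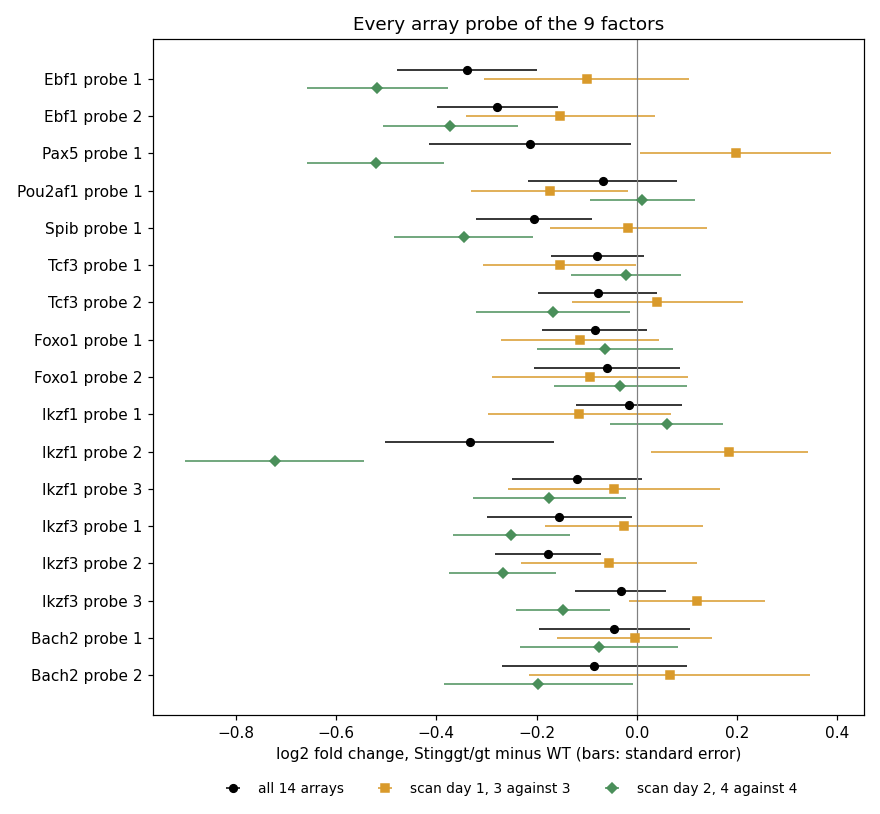
Log2 fold change, Stinggt/gt minus WT, of each of the 17 probes (horizontal axis, bars are standard errors) over all 14 arrays and within each scan day. All 17 lay below 0 over all arrays, and the second Ikzf1 probe went from 0.18 on scan day 1 to -0.72 on scan day 2.

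B cell markers, fixed as a list of surface and signalling proteins, were read beside the factors on the same arrays. Over all arrays 7 of the 8 were lower and 1 higher in Stinggt/gt mice, with a median of -0.16. None passed an unadjusted p under 0.05 in limma, but with array weights 3 were called lower, where 2007 of all 24908 genes were. The direction turned with slide as a fixed block, to 1 lower and 7 higher (median 0.15). With slide as a random block 4 were lower and 4 higher (median -0.013), and without WT replicate 7, 5 were lower and 3 higher (median -0.092). Ms4a1, which encodes CD20, had a log2 fold change of -0.20. Among the scan day 1 arrays 1 was lower and 7 higher, with 1 higher past the threshold and a median of 0.31. Among the scan day 2 arrays all 8 were lower, 5 of them past the threshold, with a median of -0.47. The 5 calls stand beside 11.3% of all genes called lower on that day.

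In each array, the summed signal of the B cell markers relative to the 75th percentile was 240.4, 209, 184 and 256 in the WT mice of scan day 2 and 175, 151, 152 and 176 in the Stinggt/gt mice. By this sum each Stinggt/gt mouse of that day lay below each WT mouse, but by the mean log2 signal of the list Stinggt/gt replicate 4 (3.05) lay above WT replicate 6 (3.01). On scan day 1 the sums were 146, 199.6 and 147 in WT mice and 152, 172 and 218 in Stinggt/gt mice, so the order was mixed. The part of the B cell markers in the values of Ebf1, Pax5 and Spib was not tested.

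**Figure D4:**
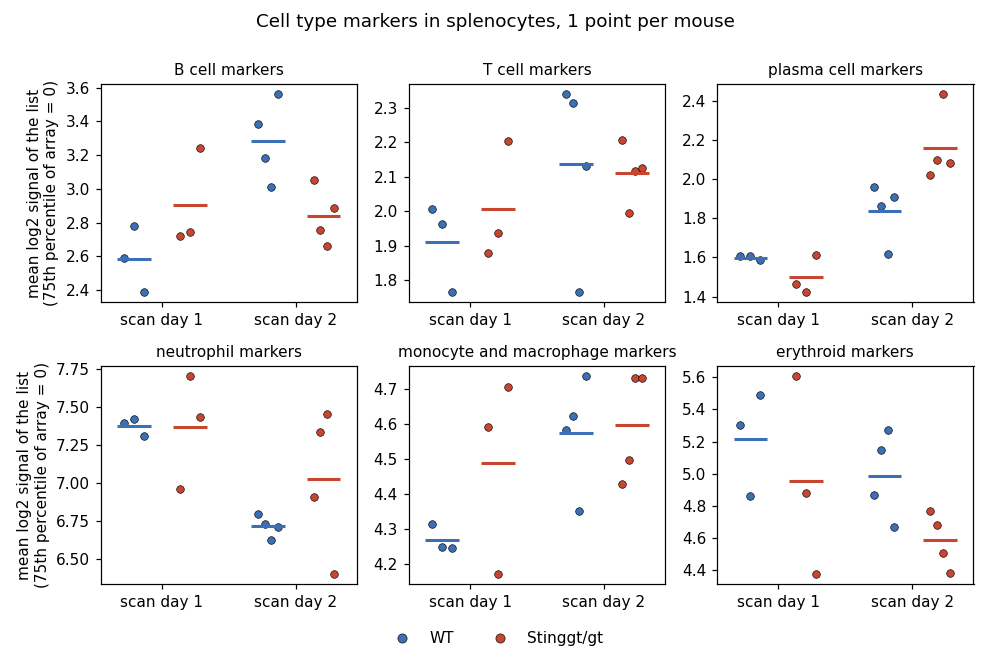
Mean log2 signal of 6 marker lists (vertical axis, 75th percentile of the array at 0) in each mouse, by genotype and scan day, with group means as bars. On scan day 2 the B cell markers averaged 2.84 in Stinggt/gt mice and 3.29 in WT mice, and on scan day 1 they averaged 2.9 and 2.59.

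Markers of other cells were read from the same arrays. Of the 8 erythroid markers, all were lower in Stinggt/gt mice, with a median of -0.31, and 2 fell at an unadjusted p under 0.05, where 1.63% of all genes were called lower. Among them was Tfrc (-0.52, standard error 0.23), the transferrin receptor. The call of Tfrc was not kept within scan day 1, at -0.35, nor with slide as a fixed block, at -0.11, or as a random block, at -0.33, nor in a test without the shared variance of limma. Leaving out any of WT replicates 1, 3, 5 and 6 and Stinggt/gt replicates 3 to 7 ended the call of Tfrc (-0.67 to -0.42 over all arrays left out). Of the list, 3 markers were lower and 5 higher with slide as a fixed block (median 0.064). All 8 were lower with slide as a random block (median -0.17), and neither block gave a call. Without Stinggt/gt replicate 1, 7 of the 8 were called lower over all other arrays (median -0.47), where 897 of all 24908 genes were called lower. None was called without WT replicate 3, 5 or 6 or Stinggt/gt replicate 3, 5, 6 or 7. Within scan day 1 all 8 erythroid markers were lower, none called, and within scan day 2 all 8 were lower and 5 called, beside 11.3% of all genes called lower. Under median centring 1 of the 8 was higher on scan day 2 and 3 were called. Without WT replicate 5 or 6 or Stinggt/gt replicate 7, 1 was higher and 2 were called on that day. Quantile normalization and the authors' series table each gave 7 called there. The summed signal of the list ran from 422 to 660.5 in WT mice (median 512) and from 331 to 726 in Stinggt/gt mice (median 405), with overlap. On scan day 2 the sums did not overlap, at 422 to 539.4 in WT mice and 335.5 to 411 in Stinggt/gt mice. By the mean log2 signal of the list they did on that day (4.666 to 5.273 and 4.385 to 4.766). The part of the erythroid markers in the values of the factors was not tested.

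Of the 7 plasma cell markers, 2 were lower and 5 higher, with a median of 0.15, and Sdc1 was at 0.39 and Jchain at 0.20. None passed the threshold, but Sdc1 and Tnfrsf17 (0.38) did in the authors' series table, in the fit that held scan day too, and when any of Stinggt/gt replicates 1 to 3 was left out, and Jchain was called lower with slide as a fixed block. Within scan day 1, 5 of the 7 were lower and 2 higher, with 1 called lower (Jchain, at -0.34) and a median of -0.085. Within scan day 2, 2 were lower and 5 higher, 4 of these at an unadjusted p under 0.05, with a median of 0.32, beside 12.5% of all genes called higher. After adjustment by limma 2 passed on that day (n = 4 and 4), chosen after their values were seen, Sdc1 at 0.86 (adjusted p = 0.0297, 0.0231 to 0.108 over the alternatives) and Tnfrsf17 at 0.78 (adjusted p = 0.04996, just under the threshold, 0.0343 to 0.131). Both calls were lost in 7 of the 12 alternatives, namely with no scaling and without any of WT replicates 4 to 7 or Stinggt/gt replicates 5 and 6. No gene passed over all arrays, with or without scan day as a term, among the T cell markers (4 lower, 6 higher, median 0.031, Cd3d at 0.051 and Cd3e at 0.015), the neutrophil markers (1 lower, 7 higher, median 0.16, S100a8 at 0.087 and S100a9 at 0.079) or the monocyte and macrophage markers (2 lower, 6 higher, median 0.053, Csf1r at -0.0050 and Adgre1 at 0.22). The same held for the dendritic cell markers (3 lower, 5 higher, median 0.039, Flt3 at 0.041 and Zbtb46 at 0.093) and the NK cell markers (0 lower, 6 higher, median 0.098, Ncr1 at 0.21 and Klrb1c at 0.25). Over all arrays, and with this scaling, median centring or quantile normalization, only the lists of erythroid cells and B cells among the cell type lists had a median below 0. With no scaling, where the median over all genes was -0.037 in place of 0.023, those of T cells (-0.029), monocytes and macrophages (-0.0062) and dendritic cells (-0.020) were below 0 too. With slide as a fixed block the medians of B cells (0.15) and erythroid cells (0.064) were above 0. Those of plasma cells (-0.15), neutrophils (-0.11), dendritic cells (-0.089) and T cells (-0.023) were then below 0. With slide as a random block that of plasma cells (-0.018) was below 0 too.

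By scan day, the median of the T cell markers was 0.062 on scan day 1 (2 lower, 8 higher) and -0.041 on scan day 2 (7 lower, 3 higher), with no call. That of the NK cell markers was 0.28 (1 lower, 5 higher, Ncr1 called at 0.49) and -0.019 (4 lower, 2 higher, no call), and that of the monocyte and macrophage markers 0.12 (0 lower, 8 higher, Lyz2 called at 0.76) and 0.030 (4 lower, 4 higher, no call). The neutrophil markers had -0.00051 (4 lower, 4 higher, no call) and 0.26 (0 lower, 8 higher), with Mpo called at 0.72 on scan day 2, a call lost without any of WT replicates 4, 6 and 7 and Stinggt/gt replicates 5 and 6. Without Stinggt/gt replicate 7, 6 of the 8 neutrophil markers were called higher on scan day 2, with a median of 0.49. The share of all genes called in that fit is not given here. The dendritic cell markers had -0.037 (4 lower, 4 higher, no call) and 0.13 (2 lower, 6 higher), with Siglech called at -0.28 and Bst2 at 0.44 on scan day 2, of which 1 was lost under each other scaling and both without WT replicate 5. Lyz2, Mpo, Siglech and Bst2 were named after their values were seen. Beside these calls, 3.77% of all genes were called on scan day 1. On scan day 2, with all its arrays, 11.3% were called lower and 12.5% higher. The part of these markers in the values of the factors was not tested.

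Among 26 tested partners, relatives and inhibitors of the factors (28 were listed, and Ebf2 and Ebf3 were not tested), 9 were lower and 17 higher in Stinggt/gt mice, with a median of 0.043. With no scaling the tally turned to 17 lower and 9 higher (median -0.016), and on scan day 1 it was 14 lower and 12 higher (median -0.049), so no direction is read from it. Within scan day 2, 8 were lower and 18 higher. Pou2f2 (-0.35) and Mafk (-0.39) were called lower, beside 11.3% of all genes, and Id1 (0.57) and Myb (0.62) higher, beside 12.5%. Nothing particular to this list is read from these calls. All but Id1 were named after their values were seen. Over all arrays Id1, an inhibitor that pairs with E proteins such as those of Tcf3 and keeps them off DNA, was the only one to pass an unadjusted p under 0.05 and rose by 0.39 (standard error 0.14). Its call was lost within scan day 1, at 0.15, and with slide as a random block, at 0.24, or as a fixed block, at 0.020.

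Genes that Pax5 and Ebf1 are known to turn on numbered 11, all tested, of which 9 were lower and 2 higher, with a median of -0.073 and none past the threshold. Cd79a, a signalling chain of the B cell receptor, was at -0.051. Among the scan day 1 arrays 5 were lower and 6 higher, 1 called in each direction, with a median of 0.0043. Among those of scan day 2, 9 were lower and 2 higher, with 3 called lower, beside 11.3% of all genes, and a median of -0.28. Several genes, such as Cd79a, Cd79b and Blk, stand in both this list and the B cell markers. Of the genes known to be turned on by Foxo1, 7 of 9 were tested (not Rag1 and Rag2), and all 7 were lower, none past the threshold, with a median of -0.073. Il7r, the interleukin-7 receptor, was at -0.044. The scan days did not agree for this list, with 2 lower and 5 higher on scan day 1 (median 0.019) and 6 lower and 1 higher on scan day 2 (median -0.21), none called on either day. On scan day 2, with all its arrays, 11.3% of all genes were called lower. Of the Foxo1 list, 3 were called lower on that day without WT replicate 6, and 1 with quantile normalization or without WT replicate 7. The median of that day was -0.064 without WT replicate 4. Over all arrays, with no scaling, median centring or quantile normalization all 7 stayed lower, and 10 or 11 of the 11 genes of the Pax5 and Ebf1 list were lower. The Foxo1 list had 4 lower and 3 higher without WT replicate 4 or 5 or Stinggt/gt replicate 1. That of Pax5 and Ebf1 had 7 lower and 4 higher without WT replicate 7 or Stinggt/gt replicate 1 or 6. With slide as a fixed block, 5 were lower and 2 higher in the Foxo1 list, and 6 lower and 5 higher in the other.

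Of the progenitor genes, 6 of 8 were tested, with 3 lower and 3 higher and a median of -0.016. Dntt, which adds bases at antigen receptor joints, was at 0.013 and Vpreb1, a part of the surrogate light chain, at -0.40, neither past the threshold. The scan days differed for this list. On the first, 5 were lower and 1 higher (median -0.28). Vpreb1 was called at -0.91, beside 3.77% of all genes called on that day, while Dntt, at -0.37, was not called. On the other, 3 were lower and 3 higher (median 0.14). Cd93 and Kit, named after their values were seen, were called at 0.40 and 0.31 (neither with no scaling). On that day 12.5% of all genes were called higher. Vpreb1, at -0.0097, and Dntt, at 0.30, were not called on that day. Genes that Pax5 or Bach2 hold down were 3 lower and 4 higher of 7, with a median of 0.041. Their median was -0.085 on scan day 1, with Jchain called lower, and 0.16 on scan day 2. On scan day 2 Jchain and Xbp1 were called higher (Xbp1 not with no scaling), beside 12.5% of all genes. Over all arrays Prdm1, which encodes the plasma cell regulator Blimp-1 and is repressed by Bach2, was at -0.15 and Xbp1 at 0.15. Immediate early and stress genes, which can change while a tissue is taken apart, were 5 lower and 6 higher of 11, with a median of 0.0050 (-0.20 on scan day 1 and 0.039 on scan day 2). On scan day 1, 9 were lower and 2 higher, with Hspa1b called at -0.88 and Atf3 at 0.55, beside 3.77% of all genes called. On scan day 2, 5 were lower and 6 higher, with Junb (0.42), Ier2 (0.30) and Nr4a1 (0.33) called higher. There 12.5% of all genes were called higher and 23.7% in either direction, so nothing particular to this list is read from it. The part of these genes in the values of the factors was not tested. The scan day 2 count of 3 was 1 in the authors' series table, with Junb alone. These genes other than Hspa1b were named after their values were seen. Over all arrays Hspa1b, a heat shock protein, was the only one called, at -0.58 (standard error 0.25), and its call was lost within scan day 2, at -0.36, in a test without the shared variance of limma, and without any of WT replicates 2, 4 and 5 and Stinggt/gt replicates 1, 2 and 3. With scan day as a term Hspa1a (-0.64) passed as well.

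For each factor, the genes most like it were ranked over 14719 genes with a symbol by the smaller of its Pearson correlations within scan day 1 (6 arrays) and within scan day 2 (8 arrays). Both genotypes are in these arrays, so a shared genotype difference adds to the correlation. Nearest to Ebf1 were S1pr3, with a smaller r of 0.917, Sema7a (0.915) and Dtx1 (0.889). Nearest to Pax5 were Zfp53 (0.901), Gm14320 (0.898) and Ccdc66 (0.873). Spib lay nearest to Il27ra (0.946), Dpp4 (0.909) and Cacnb3 (0.899), and Pou2af1, with lower values than the other factors, to Gpr174 (0.797), Kcnj5 (0.75) and Fgf3 (0.718).

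For Tcf3 they were Gm10516 (0.913), Cpsf2 (0.892) and Fads1 (0.885), and for Foxo1 Enc1 (0.829), Mmrn2 (0.829) and Arhgap22 (0.828). Ikzf1 was followed by Kcmf1 (0.895), Nfia (0.891) and Sord (0.881), and Bach2 by Ankrd10 (0.953), Phf1 (0.943) and Lgals4 (0.939). For Ikzf3 they were Csrnp2 (0.864), Map4k2 (0.848) and another of the 9 factors, Spib (0.842). No other factor was among the 3 genes nearest to a factor. Between Ebf1 and Spib the correlation was 0.54 over the 6 arrays of scan day 1 and 0.98 over the 8 arrays of scan day 2, and between Ebf1 and Pax5 it was -0.45 and 0.92. These values describe 6 or 8 arrays each and carry no test.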

How the data were processed

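Splenocyte RNA of 7 WT and 7 Stinggt/gt mice was measured on 14 arrays. The intensity values were made by the authors from the scans in Agilent Feature Extraction (11.0.1.1 in the headers) as background-corrected signal, not normalized between arrays. The deposited series table holds log2 values whose normalization is not stated, with array medians of 5.49 to 5.52. They correlated with the log2 signal of the same array at 0.997 to 0.999.

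Outlier spots were left out, spots of a probe averaged and each array's 75th percentile over non-control probes subtracted. A probe was tested when well above background on at least 7 of 14 arrays (31766 probes). Genes were compared by limma 3.58.1 (R 4.3.3, statmod 1.5.0), tested on simulated data, with a call at an unadjusted p under 0.05, the threshold in the study's methods, and Benjamini-Hochberg adjustment over all 24908 genes. Single genes were compared by two-sided exact permutation tests. Tables and figures used Python 3.11.15, pandas 2.3.3 and matplotlib 3.10.9.

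The genes named are all 9 factors, up to 4 genes with the largest change among those called in each list, or its first 2 tested genes where none was called, and the 3 genes most like each factor. Some genes that this choice gave are not reported here, though they count in the lists. Members and lists were chosen with earlier results of these data known. Alternatives covered scaling, background, filters, probes, test, scan day, slide, replicate block and each array left out. Same-numbered WT and Stinggt/gt arrays deviated together, at correlations of 0.16 to 0.53 across genes, and at -0.41 to 0.25 once scan-day means were removed, with 4 of 7 pairs still at 0.13 or above. All 7 were smaller then, so scan day is part of the pairing, and the rest was not tested. With the replicate block 1408 genes passed in place of 882.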

Additional observations from a re-analysis of the deposited data

How the results depend on the processing

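Of the 17 alternatives other than leaving out an array, 12 kept the count of called factors at 1. It was 0 with slide as a random block, with slide as a fixed block and within scan day 1, 2 with array weights and an intensity trend, and 3 within scan day 2. Leaving out each array in turn gave 0 to 2. The replicate block gave 1, with Ebf1 at -0.34, and changed no call of the factors. The count between scan days was 0 in place of 4 in the authors' series table, and 4 in each fit with an array left out. The interaction count was 1 to 2 with an array left out. Within scan day 2, alternatives chosen after seeing the data gave 2 to 4 called factors, 2 to 4 also with an array left out. The cause of these differences was not tested.

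Signs that turned were those of Pax5 (0.019 with slide as a random block, 0.17 as a fixed block, 0.20 within scan day 1), Pou2af1 (0.0086 with array weights, 0.011 within scan day 2) and Ikzf1 (0.014 and 0.059). With an array left out, Pou2af1 ran from -0.12 to 0.024, Ikzf1 from -0.052 to 0.029 and Bach2 from -0.11 to 0.042. Over all genes, 882 calls became 439 with slide as a random block, 1408 with the replicate block, 1803 with a scan day term, 1928 in the series table, 4705 with array weights, 5911 within scan day 2 and 494 (without Stinggt/gt replicate 6) to 1963 (without Stinggt/gt replicate 1). The share of calls that were lower, 45.9%, was 69.4% with median centring and 80.5% with no scaling. Signal over background limited 1 probe of the 17, the second of Bach2.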
